A study of Mus musculus with 24 samples.

Results

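The MHC class I and II genes described here are 10 mouse genes of the antigen presentation machinery, followed by gene symbol through every library of the study. For class I they are the heavy chains H2-K1 and H2-D1, the light chain gene B2m, the peptide loading gene Tapbp and the regulator Nlrc5. For class II they are the regulator Ciita, the invariant chain gene Cd74 and the chains H2-Aa, H2-Ab1 and H2-Eb1. They were taken by symbol, with no threshold on their levels, from 22282 genes obtained by summing the transcript values of each symbol. Ptprc, which encodes the leukocyte surface phosphatase CD45, was followed beside them as a check for RNA of leukocytes.

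MHC class I molecules are carried by nearly all nucleated cells and show peptides from inside the cell to cytotoxic T cells. A heavy chain pairs with the light chain in the endoplasmic reticulum and receives a peptide with the help of tapasin, and interferons and Nlrc5 raise transcription of these genes. MHC class II molecules are pairs of an alpha and a beta chain that show peptides taken up from outside to helper T cells. Their transcription depends on Ciita and is a property of dendritic cells, macrophages and B cells, although liver sinusoidal endothelium is also known to carry some class II. In C57BL/6 mice the alpha chain partner of H2-Eb1 is not transcribed, so that the H2-Eb1 product does not reach the surface in this strain.

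RNA sequencing was available for 24 libraries in 8 groups, with 3 libraries in each group, and all groups are labelled C57BL/6J. MACs are amniotic fluid cells of embryos at E11.5 to E13.5, Akt-MACs are such cells with a lentivirus for myristoylated, constantly active Akt, and RACVECs are such cells with lentiviruses for mouse Etv2, Erg and Fli1. Akt-RACVECs carry these Ets factors and active Akt, and Sox17-RACVECs carry the Ets factors and mouse Sox17. Akt-LECs and Akt-liver ECs are lung and liver endothelial cells cultured with active Akt, and LSECs are liver endothelial cells sorted from liver without culture. Per the methods of the study, Ets factors and Akt were expressed from the same vector with a PGK promoter, Sox17 cells were selected with puromycin, amniotic cells were pooled from a litter, and the adult cells were chosen by VEcad with CD31 or isolectin. The methods name no leukocyte marker in these gates, and the age of the adult mice is not given in the sources used here. During conversion, cells grew in an endothelial medium with VEGF-A and an inhibitor of TGF-beta signalling. Amniotic cells before conversion were cultured in AmnioMAX medium. Per the methods, biological replicates of MACs were separate isolations, but for the adult cells this is not given in the sources used here. The labels number the libraries without naming their animals, litters or cultures, and p-values measure the spread between these libraries.

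The values are FPKM, fragments per kilobase of transcript scaled to the fragments of the library, made by the authors with upper-quartile normalisation. The summed FPKM lay between 1689486 and 2317294 per library and between 12356 and 14985 genes were above 0. Numbers of reads are not given in the sources used here, so the depth and the counting error are unknown, and a value listed at 0 may be a failed estimate. No files of the 24 libraries were the same, with 0 identical of 276 pairs. The comparisons used limma on the log2 of FPKM + 1. A call required a Benjamini-Hochberg adjusted p under 0.05 together with a log2 fold change past 1 or -1. The fit took in 14964 genes whose FPKM averaged 1 or more, 9 of the 10 members among them. Ciita was the member below this mean.

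Markers of other cells were read before the results. Ptprc had an FPKM of 154.7, 110.8 and 84.5 in LSEC 1 to 3 and of 4.37, 127.3 and 306.3 in Akt-MAC 1 to 3. It was 18.2 in Akt-LEC 1, 11.1 in Akt-liver EC 1 and 0.34 in Akt-RACVEC 1, and 0 in the other libraries. The sum of 8 leukocyte markers was between 14.4 and 37.0 in MACs, between 261 and 15326 in Akt-MACs and between 3214 and 4392 in LSECs. It was 626 in Akt-LEC 1 and 733 in Akt-liver EC 1, at most 100.5 in the other libraries of these groups and between 137.4 and 641.8 in RACVECs, where Ptprc, Spi1, Tyrobp and Fcer1g were at 0. Of 8 macrophage and Kupffer cell markers, 7 were in the table, and their sum was between 0.79 and 14.7 in MACs, between 880 and 41205 in Akt-MACs and between 11780 and 18925 in LSECs. Akt-LEC 1 and Akt-liver EC 1 also stood apart by the 6 amniotic and mesenchymal markers, which summed to 2465 and 2522 there and to between 6.52 and 60.9 in the other libraries of their groups. The Kupffer cell lectin Clec4f was 0 in all Akt-MAC libraries and 4942, 4169 and 2965 in LSECs, where hepatocyte markers also summed to between 1873 and 10836. The 8 endothelial markers summed to between 39.6 and 83.9 in MACs and Akt-MACs, to between 2147 and 4479 in RACVECs and to between 17759 and 20339 in LSECs, so that the endothelial label of the LSECs was borne out by their markers. In bulk RNA, fewer cells of a type and less RNA per cell cannot be told apart.

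Class I and class II genes are known to share short promoter elements, the X1, X2 and Y boxes, through which Nlrc5 and Ciita act without binding DNA themselves. The promoters are shown so that the starts of class I and class II members can be compared by their letters. RefSeq windows of GRCm38.p6 from 250 bases before to 50 bases after a start were at hand for 6 of the 10 members, with 7 starts, and both strands were searched. The motifs were the Y box GATTGG, the X2 box TGNNGTCA, the X1 box AGNNACNGA, a kappaB site GGGGATTCC and an interferon element GAAANNGAA. Among 32851 windows of the same length the Y box was found in 16.11%, the X2 box in 18.62%, the X1 box in 17.73%, the interferon element in 8.56% and the kappaB site in 0.25%, and 2.79% held both a Y box and an X2 box. The 250 bases before the start are printed 5′ to 3′ on the strand of the gene, with matches of either strand in capitals. They are chr2:122147437-122147686 on the + strand for B2m, chr17:34000348-34000597 on the - strand for H2-K1 and chr17:35262844-35263093 on the + strand for H2-D1. For H2-Aa they are chr17:34287824-34288073 on the - strand, and for H2-Eb1 chr17:34305617-34305866 on the + strand.
B2m: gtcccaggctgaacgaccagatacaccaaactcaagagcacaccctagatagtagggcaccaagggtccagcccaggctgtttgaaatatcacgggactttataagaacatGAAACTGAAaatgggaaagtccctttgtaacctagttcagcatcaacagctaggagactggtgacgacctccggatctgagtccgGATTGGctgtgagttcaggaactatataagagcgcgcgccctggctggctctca
H2-K1: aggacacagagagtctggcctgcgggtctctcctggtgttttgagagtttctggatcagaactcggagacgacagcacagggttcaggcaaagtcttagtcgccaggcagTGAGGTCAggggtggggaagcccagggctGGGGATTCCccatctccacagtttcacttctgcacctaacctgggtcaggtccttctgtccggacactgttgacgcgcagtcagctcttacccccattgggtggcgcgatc
H2-D1: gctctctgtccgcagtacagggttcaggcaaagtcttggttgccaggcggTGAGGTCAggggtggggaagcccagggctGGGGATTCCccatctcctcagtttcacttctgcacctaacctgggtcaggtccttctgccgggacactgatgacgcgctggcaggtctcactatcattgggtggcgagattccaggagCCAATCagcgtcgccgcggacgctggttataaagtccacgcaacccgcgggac
H2-Aa: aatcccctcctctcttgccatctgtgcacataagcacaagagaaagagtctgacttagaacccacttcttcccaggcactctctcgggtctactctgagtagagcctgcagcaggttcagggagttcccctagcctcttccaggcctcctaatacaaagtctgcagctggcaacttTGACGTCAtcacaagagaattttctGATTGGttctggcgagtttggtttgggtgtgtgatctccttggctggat
H2-Eb1: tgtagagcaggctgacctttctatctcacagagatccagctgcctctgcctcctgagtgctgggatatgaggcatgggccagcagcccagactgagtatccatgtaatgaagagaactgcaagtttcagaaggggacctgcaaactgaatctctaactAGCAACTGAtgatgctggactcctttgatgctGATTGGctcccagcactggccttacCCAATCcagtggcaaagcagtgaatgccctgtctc

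In H2-K1 and H2-D1 the capitals mark a match to the X2 letters and then the kappaB site. The X2 match lay from -140 to -133 and the kappaB site from -111 to -103 in H2-K1. In H2-D1 they lay from -200 to -193 and from -171 to -163. The X2 letters were found in 18.62% of all windows, and this match was not shown to be the element through which Nlrc5 acts. On the other strand a match to the Y letters lay from -53 to -48 in H2-D1 and after the start, from 9 to 14, in H2-K1. The Y letters were found in 16.11% of all windows, and these matches were not shown to be such an element either. The longest identical run between the H2-K1 and H2-D1 windows was 47 bases and spanned both motifs. In B2m the capitals are an interferon element from -139 to -131 and a Y box from -54 to -49, and an X1 box on the other strand lay from 3 to 11 after the start. H2-Aa held an X2 box, which reads the same on both strands, from -74 to -67 and a Y box from -49 to -44. H2-Eb1 held an X1 box from -92 to -84 and Y boxes from -60 to -55 and, on the other strand, from -35 to -30. In the 250 bases before the Tapbp start none of the 5 motifs was found, and 1 X1 box lay from 36 to 44 after it. No capital stretch overlapped another motif. Windows of Nlrc5, Ciita, Cd74 and H2-Ab1 were not used here. A match to these letters is a description of the window and was not tested for binding.

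**Figure D1:**
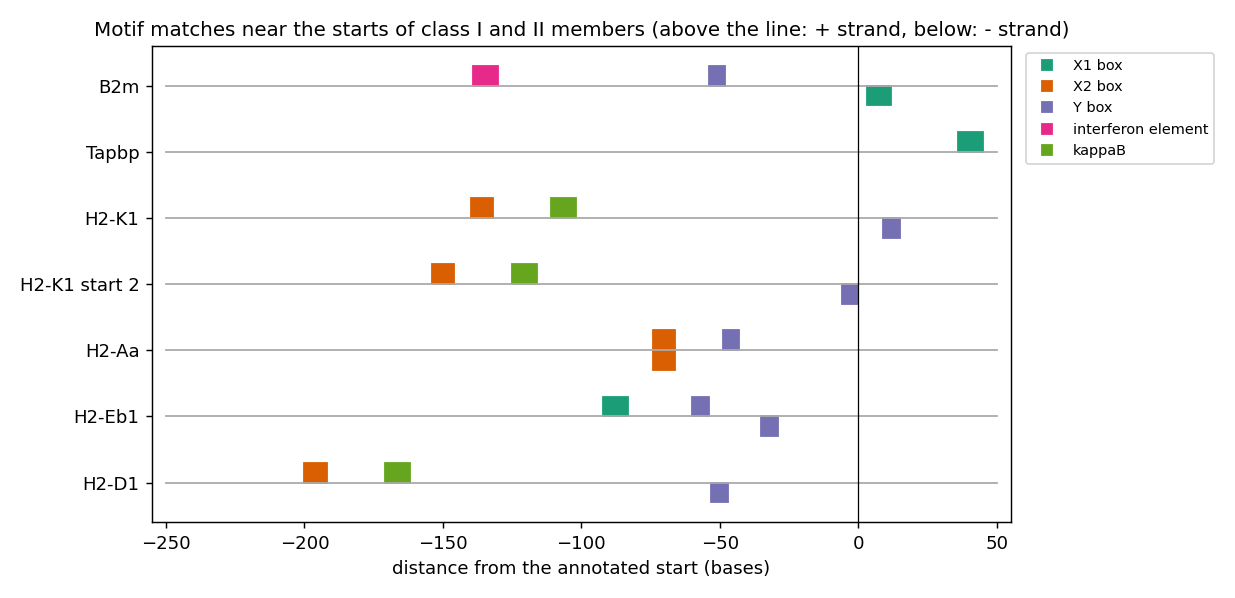
Positions of the 5 motifs in the windows from 250 bases before to 50 bases after 7 annotated starts of 6 members, in bases from the start, with matches on the strand of the gene above and matches on the other strand below each line. H2-K1 and H2-D1 carry the kappaB site, B2m, H2-K1, H2-D1, H2-Aa and H2-Eb1 have matches to the Y letters within 60 bases of the start, and Tapbp has a match only after its start.

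B2m, which encodes the light chain of all class I molecules, lies on chromosome 2 of mm9 from 121973422 to 121978819 on the + strand and overlaps Patl2 on the other strand. It was the member with the largest FPKM in each of the 24 libraries. Its FPKM was 9487, 3377 and 5360 in MACs and 7594, 11627 and 11790 in Akt-MACs. It was 7786, 13775 and 8061 in RACVECs, 3739, 3322 and 5201 in Akt-RACVECs and 13503, 13745 and 13837 in Sox17-RACVECs. Every Akt-RACVEC library lay below every RACVEC and every Akt-MAC library. The Sox17-RACVECs were the most even group, with an SD of 172.5 around a mean of 13695 (n = 3). The FPKM was 5453, 10080 and 9974 in Akt-liver ECs, 3343, 13869 and 6317 in Akt-LECs and 27893, 22237 and 42099 in LSECs. The LSECs stood above every other library. In the order of the means the Sox17-RACVECs came next and were apart from the Akt-MACs after them, and all other neighbours overlapped.

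H2-K1 encodes a classical class I heavy chain and lies on chromosome 17 of mm9 from 34132962 to 34137278 on the - strand. Its FPKM was 685, 244 and 663 in MACs, 808, 1960 and 2443 in Akt-MACs and 1064, 2255 and 922 in RACVECs. Every Akt-MAC and every RACVEC library lay above every MAC library. The FPKM was 251, 232 and 604 in Akt-RACVECs, where every library lay below every RACVEC and Akt-MAC library. It was 1578, 2017 and 2400 in Sox17-RACVECs, and these values overlapped those of RACVECs. The FPKM was 657, 1762 and 1949 in Akt-liver ECs, 516, 2829 and 803 in Akt-LECs and 3964, 4227 and 6523 in LSECs. LSECs were again above all others, and in the order of group means they were the only group whose libraries did not overlap those of the next, the Sox17-RACVECs.

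H2-D1, the other classical heavy chain gene, lies on chromosome 17 from 35399675 to 35404444 on the + strand. The FPKM was 940, 216 and 792 in MACs and 2558, 3129 and 4934 in Akt-MACs, without overlap. It was 731, 1977 and 3286 in RACVECs, 883, 781 and 1978 in Akt-RACVECs and 2147, 2975 and 2311 in Sox17-RACVECs. The RACVEC libraries overlapped both other groups, whereas every Akt-RACVEC library lay below every Sox17-RACVEC library. The FPKM was 993, 2023 and 2190 in Akt-liver ECs, 653, 3633 and 1571 in Akt-LECs and 5102, 5851 and 6326 in LSECs. The ratio of H2-D1 to H2-K1 was between 3.28 and 3.51 in Akt-RACVECs and between 0.97 and 1.38 in LSECs, and in RACVECs it ran from 0.687 to 3.57. Heavy chain genes are near copies of each other. In GENCODE M1 transcripts on mm9, 8.3% of the stretches of 51 bases in H2-K1 and 13.6% of those in H2-D1 were also found in other genes, against 0.0% in B2m, Cd74 and the class II chains. The split of reads between heavy chain genes, and with it the ratio, is therefore uncertain.

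Tapbp encodes tapasin, which holds empty class I molecules at the peptide transporter. It lies on chromosome 17 from 34052844 to 34066235 on the + strand and overlaps Zbtb22. It did not follow the other class I members. Its FPKM was 460, 201 and 171 in MACs, 209, 390 and 391 in Akt-MACs and 388, 211 and 190 in RACVECs. It was 201, 106 and 882 in Akt-RACVECs, where library 3 held the largest value of all 24 libraries. The FPKM was 284, 722 and 200 in Sox17-RACVECs, 180, 277 and 166 in Akt-liver ECs, 138, 587 and 401 in Akt-LECs and 407, 469 and 476 in LSECs. All neighbours in the order of the means overlapped, although every LSEC library was above every Akt-liver EC library.

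Nlrc5 encodes the activator of class I genes and lies on chromosome 8 of mm9 from 96996663 to 97051172 on the + strand. Its FPKM was 7.98, 2.54 and 5.34 in MACs, 5.79, 10.7 and 18.9 in Akt-MACs and 5.84, 45.15 and 11.46 in RACVECs. In Akt-RACVECs it was 1.15, 0 and 1.76, below every library of every other group. It was 38.0, 16.3 and 52.9 in Sox17-RACVECs, 11.47, 28.7 and 6.09 in Akt-LECs and, for Akt-liver ECs, 6.85, 41.9 and 37.5. LSECs had 14.8, 22.04 and 21.1 and were within the range of the cultured groups, unlike for B2m and the heavy chains. RACVEC 2, Akt-LEC 2 and Akt-liver EC 2 had the largest Nlrc5, H2-K1 and B2m of their groups, with H2-K1 in Akt-liver EC 3 as the exception.

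**Figure D2:**
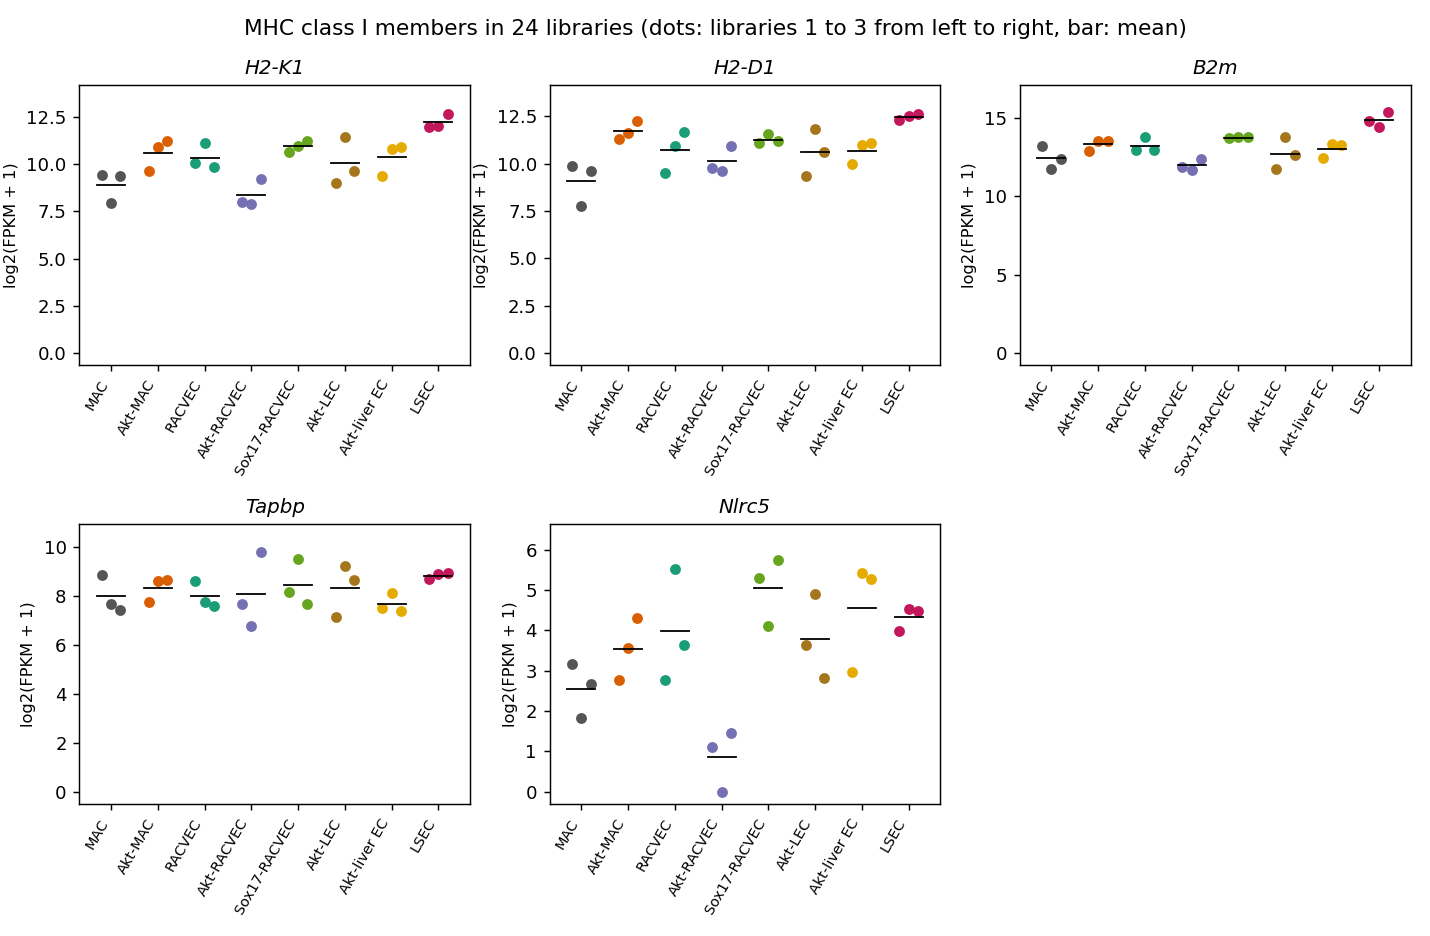
Levels of the class I members as log2(FPKM + 1) in the 8 groups, with a dot for each of the 3 libraries and a bar at their mean. LSECs lie above all other libraries for H2-K1, H2-D1 and B2m but not for Nlrc5, which is lowest in the 3 Akt-RACVEC libraries at 1.15, 0 and 1.76 FPKM.

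The class II members were low or at 0 in all cultured groups and abundant in LSECs. Ciita, the master regulator of class II transcription, lies on chromosome 16 of mm9 from 10480237 to 10527657 on the + strand. Its FPKM was 3.96, 5.27 and 3.30 in LSECs and 0.48 in Akt-MAC 2, and it was listed at 0 in the other 20 libraries. LSECs were therefore the only group with a value above 0 in all libraries.

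Cd74 encodes the invariant chain, which fills the groove of new class II molecules and guides them to endosomes. It lies on chromosome 18 of mm9 from 60963502 to 60972300 on the + strand. Its FPKM was 2497, 2496 and 1458 in LSECs. In Akt-MACs it was 4.38, 41.9 and 8.05. Akt-LECs had 14.2, 2.47 and 0, and Akt-liver ECs had 36.1, 0 and 2.25. The first libraries of both cultured endothelial groups, which also held Ptprc, were the highest of their groups. In MACs it was 1.58, 0 and 0, in RACVECs 0, 0 and 1.02, in Akt-RACVECs 0, 0 and 2.33 and in Sox17-RACVECs 0 in all 3.

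H2-Aa encodes the alpha chain of I-A, the class II molecule that C57BL/6 mice express. It lies on chromosome 17 of mm9 from 34406276 to 34424772 on the - strand. The FPKM was 1400, 1199 and 1401 in LSECs. It was 0, 6.24 and 3.35 in Akt-MACs, 2.82 in Akt-LEC 1 and 9.30 in Akt-liver EC 1, and it was listed at 0 in the other 16 libraries. Each of the 4 cultured libraries with a value above 0 also held Ptprc.

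H2-Ab1, the beta chain of I-A, lies from 34400154 to 34406363 on the + strand and overlaps the end of H2-Aa, and reads of the overlap cannot be told apart if strand was not used. The FPKM was 757, 810 and 935 in LSECs. Among cultured cells it was the least even member, with 2.24, 0 and 69.6 in MACs, 75.1, 1.90 and 0 in RACVECs and 6.81, 24.3 and 0 in Akt-RACVECs. MAC 3 and RACVEC 1, the cultured libraries with the largest H2-Ab1, were listed at 0 for H2-Aa, Cd74, Ciita and Ptprc. It was 39.4, 14.6 and 5.74 in Akt-MACs, 9.83, 14.0 and 0 in Akt-LECs and, for Akt-liver ECs, 20.4, 0 and 9.44, and 0 in all Sox17-RACVECs.

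H2-Eb1, a beta chain gene, lies from 34442828 to 34453144 on the + strand. The FPKM was 535, 468 and 512 in LSECs. It was 14.1, 1.74 and 3.71 in MACs, 2.59, 4.80 and 2.05 in Akt-MACs and at most 1.25 in RACVECs and Sox17-RACVECs. It was listed at 0 in all Akt-RACVECs, was at most 1.64 in Akt-LECs and had values of 5.74, 0.97 and 1.7 in Akt-liver ECs. LSECs stood apart from all other groups, which overlapped with their neighbours in the order of the means.

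**Figure D3:**
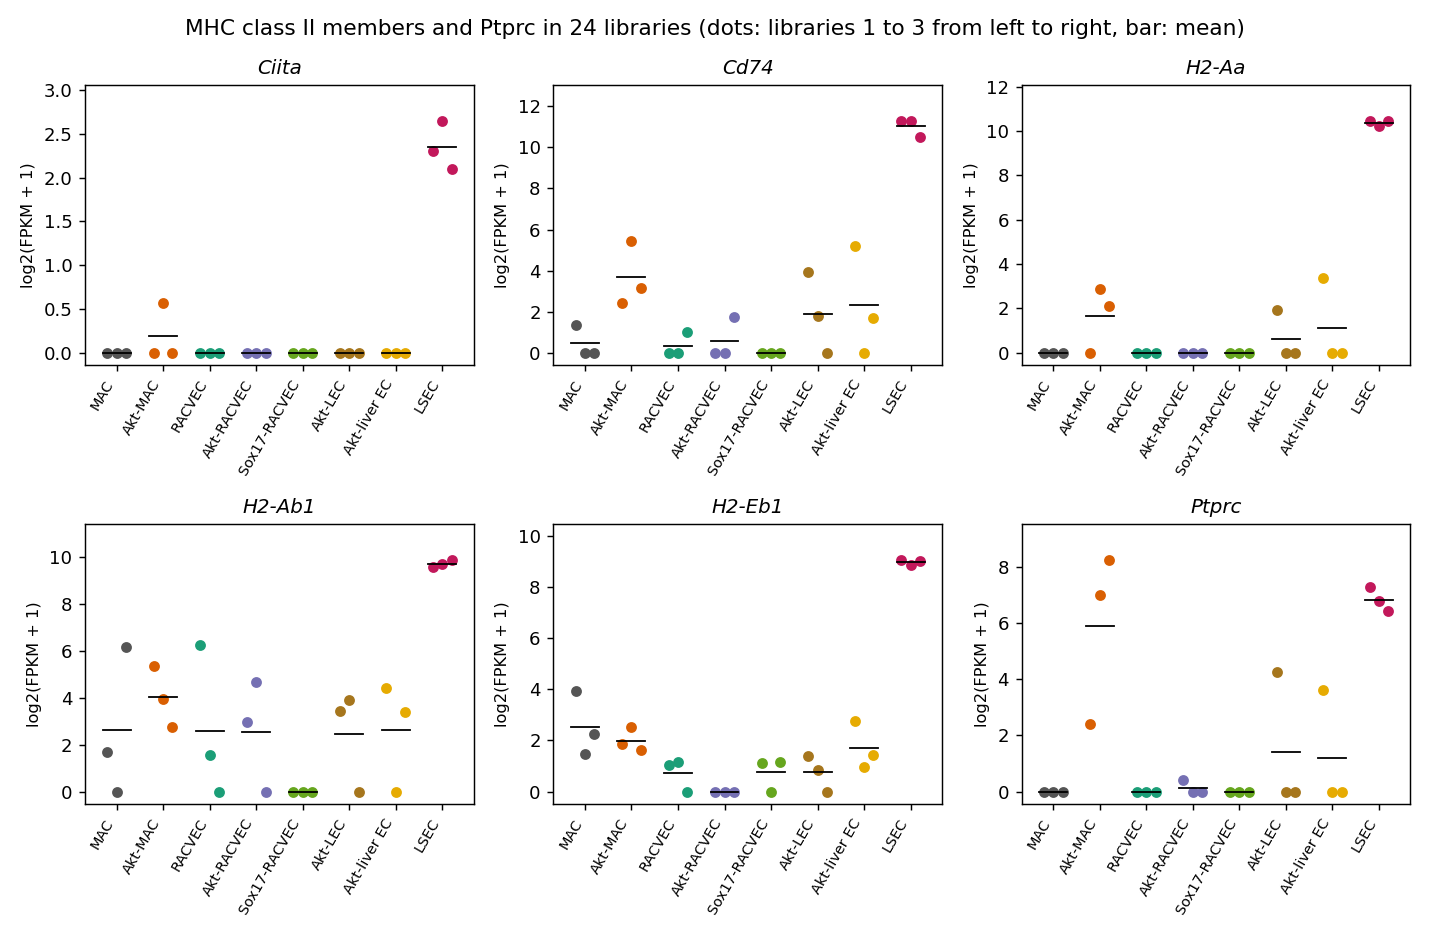
Levels of the class II members and of Ptprc as log2(FPKM + 1) in the 8 groups, with a dot for each of the 3 libraries and a bar at their mean. LSECs lie above all cultured libraries for every class II member, whereas Ptprc is as high in Akt-MAC 2 and 3, at 127.3 and 306.3 FPKM, as in LSECs.

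The largest differences of the members were found between cultured liver endothelium with active Akt and directly sorted liver endothelium. Culture and its medium, active Akt and the isolation of the cells cannot be told apart in this comparison. Of the 9 members tested, 7 were called lower in cultured Akt-liver ECs than in the sorted LSECs and 0 higher, where the shares over all genes tested were 12.9% lower and 14.1% higher. The median log2 fold change of the 9 was -1.86, beside 0.08 over all genes tested. H2-Aa fell by 9.26 on the log2(FPKM + 1) scale (SE 0.76, adjusted p = 2.18e-08), Cd74 fell by 8.72 (SE 1.08, adjusted p = 5.81e-06), H2-Eb1 fell by 7.26 (SE 0.58, adjusted p = 1.66e-08) and H2-Ab1 fell by 7.10 (SE 1.66, adjusted p = 0.00295). The class I members fell less, B2m by 1.86 (SE 0.49, adjusted p = 0.00719), H2-K1 by 1.86 (SE 0.62, adjusted p = 0.0254) and H2-D1 by 1.81 (SE 0.63, adjusted p = 0.0336). The call of B2m was lost when the fit held the compared groups alone (adjusted p = 0.168) and by the criterion of the study, a fold change of averaged FPKM with an unadjusted test, and its adjusted p was between 0.00495 and 0.243 over the alternatives. The size of the class II differences moved with the pseudocount and the libraries, from -11.51 to -6.75 for H2-Aa, from -10.18 to -6.88 for Cd74, from -7.81 to -5.35 for H2-Eb1 and from -8.27 to -5.54 for H2-Ab1, and the smallest were those with a pseudocount of 10. Tapbp had a log2 fold change of -1.15 with a 95% interval from -2.52 to 0.23, and its libraries did not overlap. It was called with the compared groups alone (adjusted p = 0.0155), in a range over the alternatives from 0.0155 to 0.345. Nlrc5 had 0.23 with an interval from -1.35 to 1.81, and its libraries overlapped. No fold is given for Ciita, since Akt-liver ECs were listed at 0.

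Several values of other cells moved with this difference. The called lower markers were 5 of 8 leukocyte markers, all 7 macrophage and Kupffer cell markers tested, 3 of 3 T and NK cell markers tested and 1 of 3 dendritic cell markers tested, and 4 of 4 hepatocyte markers. The B cell markers Cd79a, Cd79b and Ms4a1 were called lower as well, with between 36.9 and 44.4 FPKM of Cd79b in LSECs and at most 2.31 in Akt-liver ECs. So were 4 of 5 markers of liver sinusoidal endothelium, which summed to between 41696 and 52619 in LSECs and between 3008 and 7292 in Akt-liver ECs. T and NK cell markers summed to between 46.8 and 62.9 FPKM in LSECs and to at most 2.6 in Akt-liver ECs. Their part in the class I and class II differences was not tested. The sum of Cd74 and the 3 class II chains per unit of Ptprc was 33.5, 44.9 and 50.9 in LSECs and 10.6, 0.53 and 0.0626 in Akt-MACs, where Ptprc was 4.37, 127.3 and 306.3. It was 1.56 in Akt-LEC 1 and 6.42 in Akt-liver EC 1. In Akt-MAC 1, H2-Ab1 made up 39.4 of the sum of 46.4. H2-Ab1 was also 69.6 in MAC 3 and 75.1 in RACVEC 1, where Ptprc was 0. The ratio was not shown to be a value per leukocyte. Without Akt-LEC 1 and Akt-liver EC 1, the cultured endothelial libraries with Ptprc and with high mesenchymal markers, 5 members were called lower, and H2-K1 and H2-D1 were lost at log2 fold changes of -1.37 and -1.45. The adjusted p of H2-D1 was also above 0.05 without any LSEC library, at between 0.0646 and 0.0897, and that of H2-K1 without LSEC 3 at 0.0949, within ranges over all alternatives of 0.0218 to 0.130 and 0.0237 to 0.126.

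**Figure D4:**
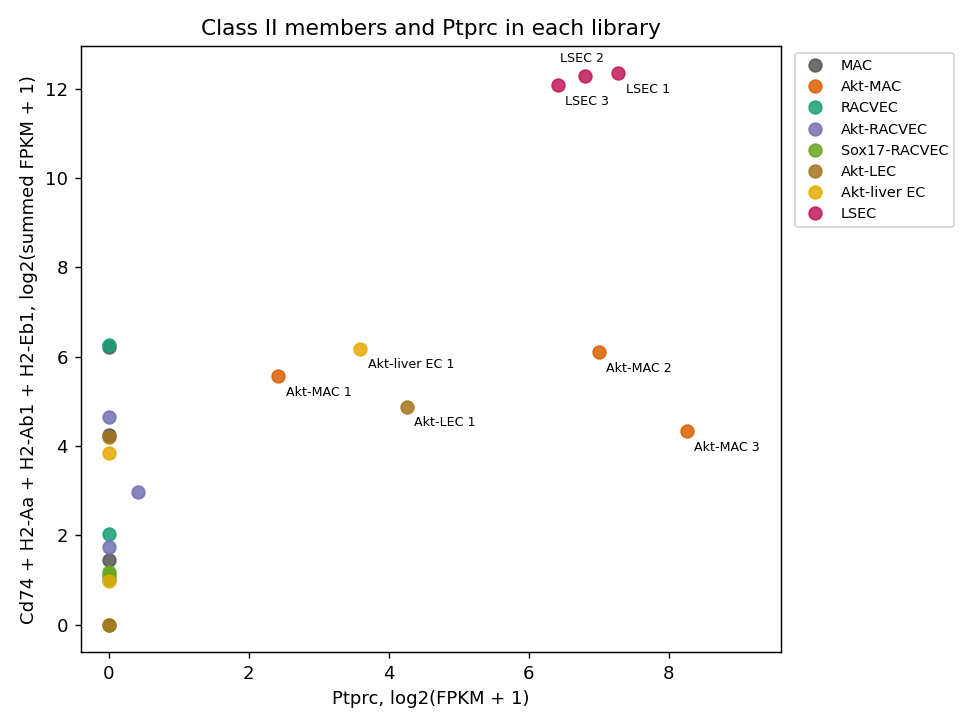
Summed FPKM of Cd74, H2-Aa, H2-Ab1 and H2-Eb1 against FPKM of Ptprc in each of the 24 libraries, both as log2 of the value plus 1. The 3 LSEC libraries lie between 4306 and 5188 on the class II axis, whereas Akt-MAC 2 and 3 lie at 67.4 and 19.2 with Ptprc at 127.3 and 306.3.

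Active Akt without the Ets factors was compared in Akt-MACs and MACs. H2-D1 rose by 2.64 on the log2 scale (SE 0.63, adjusted p = 0.0291), and it was 1 of 9 members called higher, where 2.59% of all genes tested were called higher and 0.214% lower. The count of members called lower was 0, as it was for p below 0.05 before adjustment and by the criterion of the study, while 4 members were higher at p below 0.05 before adjustment and past the same fold change, H2-D1, Cd74, H2-K1 and H2-Aa. The share of all genes passing before adjustment was not computed, so these 4 members have no like share beside them. Every Akt-MAC library was above every MAC library for H2-D1, H2-K1 and Cd74, but the log2 fold changes of 1.71 for H2-K1 (SE 0.62, adjusted p = 0.177) and 3.22 for Cd74 (SE 1.08, adjusted p = 0.134) were not called. B2m, Nlrc5, Tapbp, H2-Aa, H2-Ab1 and H2-Eb1 were not called either.

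Like the LSECs, Akt-LEC 1 and Akt-liver EC 1, the Akt-MACs held RNA of macrophage markers. Of 8 leukocyte markers 6 were called higher than in MACs, among them Ptprc (adjusted p = 0.0128), and of 7 macrophage and Kupffer cell markers 5 were called higher, Adgre1, Cd5l, Csf1r, Lyz2 and Marco. Among B, T and NK cell markers, Cd79a, Ms4a1, Cd3e, Cd3g and Nkg7 were 0 in all Akt-MAC libraries. Cd79b was 0, 23.67 and 6.44 and Cd4 was 0.74, 4.88 and 5.82 there, and both were 0 in all MACs. In Akt-MAC 1, where Ptprc was 4.37, H2-D1 was 2558 and lay above all MAC libraries. This library was not free of such RNA. Its macrophage and Kupffer cell markers summed to 880.1 and its leukocyte markers to 261.0, beside at most 14.7 and 37.0 in MACs. When Akt-MAC 2 and 3 were left out together, the log2 fold change of H2-D1 was 2.23 with an adjusted p of 0.831, and 0 members were called. The call was also lost without Akt-MAC 2 (adjusted p = 0.10), without Akt-MAC 3 (adjusted p = 0.125) and without MAC 2 (log2 fold change 1.98, adjusted p = 0.173). Over all alternatives its adjusted p was between 0.0235 and 0.831. The part of macrophage RNA in the difference of H2-D1 was not tested further.

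The Ets factors under active Akt were compared in Akt-RACVECs and Akt-MACs. The methods of the study do not state the medium of the Akt-MACs. If it was not the conversion medium, the medium and the Ets factors cannot be told apart here. Of the 9 members tested, 4 were called lower and 0 higher, where 13.4% of all genes tested were called lower and 6.15% higher. H2-K1 fell by 2.26 (SE 0.62, adjusted p = 0.0143), Nlrc5 by 2.69 (SE 0.75, adjusted p = 0.0163) and Cd74 by 3.10 (SE 1.08, adjusted p = 0.0442), all on the log2 scale. H2-Eb1 was called with an adjusted p of 0.0195, and no fold is given since Akt-RACVECs were listed at 0. B2m and H2-D1 were lower in every Akt-RACVEC library, with log2 fold changes of -1.34 (adjusted p = 0.0569) and -1.62 (adjusted p = 0.0711), but were not called. The median log2 fold change of the 9 was -1.66, beside -0.09 over all genes tested. The same 6 leukocyte markers and 5 macrophage markers that were called higher in Akt-MACs than in MACs were called lower here, as were Cd79b, Cd4 and the mesenchymal markers Acta2 and Col1a1, and all 8 endothelial markers were called higher. Their part in these calls was not tested. Without Akt-MAC 2 and 3, 0 members were called, with log2 fold changes of -1.30 for H2-K1, -1.91 for Nlrc5 and -1.85 for Cd74. The count was also 0 without Akt-MAC 2 or without Akt-RACVEC 2, and 1 without Akt-MAC 3.

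Active Akt in converted cells was compared in Akt-RACVECs and RACVECs, which share the RACVEC libraries with other comparisons. With limma, 0 of 9 members were called in either direction, where 0.221% of all genes tested were called higher and 0.0401% lower. Before adjustment, at p below 0.05 and past the same fold change, 3 members were lower and 0 higher, and by the criterion of the study the counts were 0 and 0. The share of all genes passing before adjustment was not computed, so these 3 members have no like share beside them. The 3 were Nlrc5 with a log2 fold change of -3.12 (95% interval -4.70 to -1.54, adjusted p = 0.0623), H2-K1 with -1.99 (-3.28 to -0.69, adjusted p = 0.124) and B2m with -1.25 (-2.28 to -0.21, adjusted p = 0.226). For these 3 genes every Akt-RACVEC library lay below every RACVEC library. The adjusted p of Nlrc5 was between 0.0543 and 0.418 over the alternatives. H2-D1 had a log2 fold change of -0.60, with overlapping libraries. Ptprc was at most 0.34 in both groups. Other markers moved with these values, since the 6 amniotic and mesenchymal markers summed to between 332.7 and 2620 in RACVECs and between 0.58 and 159.9 in Akt-RACVECs, and the 8 endothelial markers to between 2147 and 4479 and between 13779 and 18618. Their part in the result was not tested.

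The Akt effect in RACVECs was set against that in MACs with an interaction contrast. Of 9 members 0 were called higher or lower, where 0.00668% of all genes tested were called higher and 0.0936% lower, and the counts before adjustment, at p below 0.05, were 0 and 4. For the counts before adjustment no share of all genes was computed. The difference of the effects was -4.11 for Nlrc5 (SE 1.07, adjusted p = 0.122), -3.69 for H2-K1 (SE 0.87, adjusted p = 0.102), -3.24 for H2-D1 (SE 0.90, adjusted p = 0.136) and -2.11 for B2m (SE 0.70, adjusted p = 0.209). The sum of the macrophage and Kupffer cell markers was between 880 and 41205 in Akt-MACs and between 5.35 and 159.9 in Akt-RACVECs, and Ptprc, listed at 0 in MACs and RACVECs, was not called in this contrast (adjusted p = 0.162). Without Akt-MAC 1, the library with the least Ptprc of its group, H2-K1 and Nlrc5 were called at -4.17 and -4.50 with adjusted p = 0.0123 and 0.0350, and over all alternatives the adjusted p reached 0.571 and 0.606.

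Conversion by the Ets factors was compared in RACVECs and MACs. The conversion medium and its inhibitor cannot be told apart from the Ets factors in this comparison. With limma, 0 of 9 members were called, where 1.36% of all genes tested were called higher and 1.35% lower. Before adjustment, at p below 0.05 and past the same fold change, 2 members were higher and 1 lower, and by the criterion of the study 0 and 0. For the counts before adjustment no share of all genes was computed. H2-K1 had a log2 fold change of 1.44 (95% interval 0.14 to 2.73, adjusted p = 0.206) with all RACVEC libraries above all MAC libraries, and H2-D1 had 1.63 (0.30 to 2.95, adjusted p = 0.165) with overlap. H2-Eb1 had -1.81 (-3.02 to -0.59, adjusted p = 0.0997) with all RACVEC libraries below all MAC libraries, and it was called lower without MAC 2, at -2.35 with adjusted p = 0.0283, in a range over the alternatives from 0.0283 to 0.360. Ptprc was 0 in all 6 libraries, and 6 of 8 endothelial markers were called higher in RACVECs.

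Sox17 was compared in Sox17-RACVECs and RACVECs. With limma 0 of 9 members were called, where 0.0% of all genes tested were called higher and 0.00668% lower. Also 0 members passed before adjustment, at p below 0.05 and past the same fold change, or by the criterion of the study. The largest class I value was the log2 fold change of 1.07 for Nlrc5, with a 95% interval from -0.51 to 2.65. B2m had 0.52 with an interval from -0.51 to 1.56. Both intervals reach past 1 on the log2 scale, so that the comparison does not show equal levels. H2-Ab1, listed at 0 in all Sox17-RACVECs, had -2.60 with an interval from -6.08 to 0.89. Ptprc was 0 in all libraries of both groups. Macrophage and Kupffer cell markers summed to between 25.8 and 916.5 in Sox17-RACVECs and between 8.95 and 304.3 in RACVECs. Nearly all of the largest sums was Lyz2, at 916.5 in Sox17-RACVEC 1 and 304.0 in RACVEC 2. Adgre1, Clec4f, Cd5l, Vsig4 and Marco were 0 in all libraries of both groups. The mesenchymal sums were 5.2 to 569.9 against 332.7 to 2620, and the endothelial sums 5553 to 17866 against 2147 to 4479. Their part in the result was not tested.

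Converted and adult endothelial cells with active Akt were compared in Akt-RACVECs and Akt-LECs. With limma 0 of 9 members were called, where 0.0% of all genes tested were called higher and 0.00668% lower. Before adjustment, at p below 0.05 and past the same fold change, 2 members were lower and 0 higher, and by the criterion of the study 0 and 0. For the counts before adjustment no share of all genes was computed. Nlrc5 had a log2 fold change of -2.93 (95% interval -4.51 to -1.35, adjusted p = 0.271) with all Akt-RACVEC libraries below all Akt-LEC libraries. H2-K1 had -1.68 (95% interval -2.98 to -0.39, adjusted p = 0.403), and its libraries overlapped.

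Lung and liver endothelial cells in culture, Akt-LECs and Akt-liver ECs, were not told apart by the members. With limma 0 of 9 were called, where 0.0% of all genes tested were called higher and 0.0134% lower, and 0 passed before adjustment, at p below 0.05 and past the same fold change, or by the criterion of the study. The libraries of the groups overlapped for every member. The interval of B2m ran from -1.34 to 0.74 and that of H2-K1 from -1.61 to 0.98. Akt-LEC 1 and Akt-liver EC 1, which carried leukocyte markers and the high mesenchymal markers given above, had the lowest B2m of their groups.

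**Figure D5:**
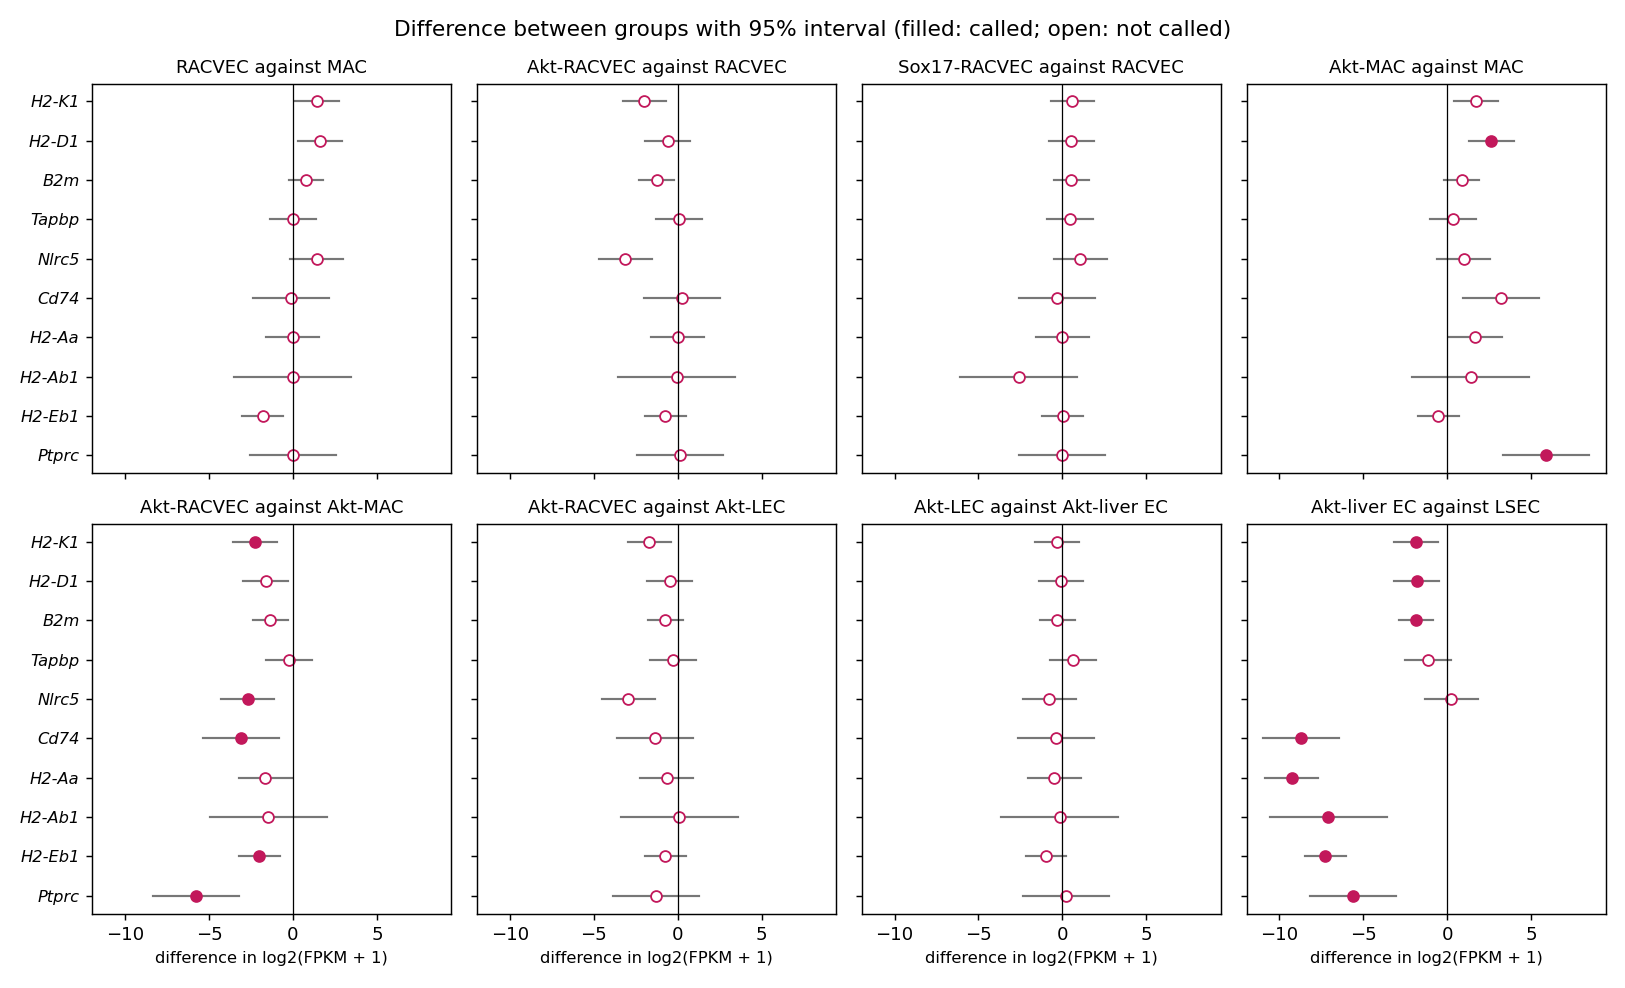
Difference in log2(FPKM + 1) between groups for the 9 members tested and Ptprc, with 95% intervals from limma, in 8 comparisons, filled where the gene was called. The 7 members called lower in Akt-liver ECs than in LSECs are split into class II at -7.10 to -9.26 and class I at -1.81 to -1.86, and no member is called in 5 of the comparisons.

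The other genes of the pathway were read from lists of symbols. Among 20 class I heavy chain and class I-like genes tested, which include H2-K1 and H2-D1, 12 were called lower in Akt-liver ECs than in LSECs, where 12.9% of all genes tested were called lower, with a median log2 fold change of -1.89. Fcgrt, the class I-like Fc receptor that recycles IgG and albumin, had an FPKM of 3564, 3628 and 4186 in LSECs and 296, 176 and 125 in Akt-liver ECs, and its log2 fold change was -4.33 (SE 1.04, adjusted p = 0.00343). H2-T24, a non-classical class I gene, had 225.5, 217 and 287 in LSECs and 4.92, 19.4 and 3.80 in Akt-liver ECs, and its log2 fold change was -4.86 (SE 0.85, adjusted p = 0.000263). In Akt-MACs against MACs 4 of the 20 were called higher, H2-D1, H2-Q1, H2-Q2 and H2-Q10, beside 2.59% of all genes tested. In Akt-RACVECs 5 of the 20 were called lower than in Akt-MACs, beside 13.4% of all genes tested. In RACVECs against MACs H2-Q10 was called higher, and the median of the list was 1.05. H2-Q genes share reads with other heavy chain genes and are uncertain.

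Of 14 genes of class I peptide supply and loading, which include B2m, 9 were called lower in Akt-liver ECs than in LSECs, beside 12.9% of all genes tested, with a median log2 fold change of -1.72. Psmb8, Psmb9 and Psmb10 encode the catalytic subunits of the immunoproteasome, which cuts peptides for class I. Psmb9 had 588, 518 and 669 in LSECs and 28.0, 56.8 and 75.5 in Akt-liver ECs, and its log2 fold change was -3.55 (SE 0.59, adjusted p = 0.000147). Psmb10 fell by 2.94 (SE 0.36, adjusted p = 4.95e-06) and Psmb8 by 2.58 (SE 0.55, adjusted p = 0.00152). Erap1, which trims peptides in the endoplasmic reticulum, fell by 2.04 (SE 0.51, adjusted p = 0.00438). Psmb8 and Psmb9 were the 2 of 14 called lower in Akt-RACVECs than in Akt-MACs, a share near the 13.4% of all genes tested.

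Of 14 class II chain and loading genes tested, which include Cd74 and the 3 chains, 13 were called lower in Akt-liver ECs than in LSECs, beside 12.9% of all genes tested, while 9 were called lower in Akt-RACVECs than in Akt-MACs, beside 13.4%, with medians of -4.81 and -2.83. Ctss encodes cathepsin S, the protease that degrades the invariant chain. It had an FPKM of 2629, 2097 and 1569 in LSECs and 49.0, 923 and 2338 in Akt-MACs, was 156 in Akt-LEC 1 and 146 in Akt-liver EC 1, and was at most 2.94 in the other libraries. Its order over the Akt-MAC libraries was that of Ptprc, and H2-Aa did not pass 6.24 there. H2-DMb1, a chain of the peptide exchange molecule H2-DM, had 152, 125 and 113 in LSECs and 13.6, 4.86 and 11.9 in Akt-liver ECs (log2 fold change -3.65, SE 0.70, adjusted p = 0.000631). Ifi30, a lysosomal thiol reductase of antigen processing, was between 144 and 174 in MACs, where macrophage markers were near 0, and between 290 and 552 in LSECs. Cd83, which keeps class II on the cell surface, was called higher in Akt-MACs than in MACs with a log2 fold change of 2.99 (SE 0.73, adjusted p = 0.0310), beside Ctss and Marchf1.

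Of 19 regulators of MHC genes tested, which include Nlrc5, 5 were called lower in Akt-liver ECs than in LSECs, Irf1, Irf2, Jak1, Jak2 and Ifngr1, beside 12.9% of all genes tested, and the median log2 fold change was -0.50. Irf1, an interferon-induced activator of class I promoters, had 610, 559 and 1213 in LSECs and 50.4, 46.5 and 39.8 in Akt-liver ECs, and its log2 fold change was -4.01 (SE 0.59, adjusted p = 4.06e-05). Jak1, a kinase of interferon receptors, fell by 1.79 (SE 0.31, adjusted p = 0.000231) and Ifngr1, the interferon gamma receptor chain, by 1.76 (SE 0.43, adjusted p = 0.00409). In Akt-RACVECs against Akt-MACs Nlrc5 was the 1 of 19 regulators called lower, a smaller share than the 13.4% of all genes tested. Stat2, a transcription factor of interferon signalling, was called in none of the comparisons.

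Of 6 costimulatory and checkpoint ligands tested, 3 were called lower in Akt-liver ECs than in LSECs, beside 12.9% of all genes tested, while 3 were called lower in Akt-RACVECs than in Akt-MACs, beside 13.4%, Cd80, Cd86 and Cd274 in both, with medians of -2.72 and -2.03. Cd86, a ligand of CD28 on professional presenting cells, had 128, 104 and 84.7 in LSECs and 0, 12.3 and 12.1 in Akt-MACs. It was above 0 in Akt-LEC 1 and Akt-liver EC 1 alone among the other libraries. Cd80, the related ligand, had 168, 116 and 38.3 in MACs, more than the 19.8, 16.3 and 8.91 in LSECs. Cd40 and Tnfsf9 were called in none of the comparisons.

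The genes whose pattern was most like that of B2m were sought by the Pearson correlation of log2(FPKM + 1) with each of 14963 other genes over the 24 libraries, which share groups and culture. They were H2-K1 with r = 0.954, Psmb9 with 0.918, Phf11a with 0.855, H2-Q10 with 0.850 and H2-Q6 with 0.845. Over the 21 libraries without LSECs, H2-K1 stayed first with 0.941 and Psmb9 second with 0.853. Nlrc5 was at rank 104 with 0.709 over 24 libraries and at rank 3 with 0.823 over 21. For Cd74 they were Vsig4 with 0.973, P2ry13 with 0.971, H2-Aa with 0.969, Plbd1 with 0.965 and Fcna with 0.964, and Vsig4 is among the macrophage and Kupffer cell markers. Between Cd74 and B2m r was 0.598 over 24 libraries and -0.02 over 21, and between Cd74 and Ptprc it was 0.848 and 0.810. H2-K1 and Nlrc5 had 0.810 over 24 and 0.881 over 21 libraries, and Tapbp had 0.517 and 0.451 with B2m. Correlations within groups were not computed.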

How the data were processed

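Per the labels and the methods, the authors aligned reads of 51 bases to mm9 with TopHat, and Cufflinks gave the deposited FPKM of each RefSeq transcript with upper-quartile normalisation and correction of sequence bias. Versions, read numbers and the use of strand are not given in the sources used here. FPKM of 27583 transcripts were joined to current symbols (26934 joined) and summed to 22282 genes. Genes whose FPKM averaged 1 or more were tested in a single limma fit (limma 3.58.1, R 4.3.3) of 8 groups on log2(FPKM + 1), two-sided, with Benjamini-Hochberg adjustment over 14964 genes, a threshold of 0.05 and a fold change past 1 or -1 in log2. The log scale with this pseudocount understates the changes of low genes. The fit was tested on simulated data in which only genes of higher FPKM were changed. That test does not cover members near 0 or groups with uneven libraries. The study's methods give a test with unequal variances on FPKM without adjustment, which was run as an alternative with a log2 ratio of averaged FPKM past 1 or -1. Other alternatives changed the pseudocount, the filter, the scaling, the transcript rows, the samples in the fit and the replicate block, or left out libraries.

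The members, gene lists and marker lists were chosen with earlier results of these data known. All 10 members and Ptprc were named, and of each list up to 4 other genes with the largest range of group means, together with counts. For B2m and Cd74 the 5 genes with the highest correlation were named. Genes outside these rules were named after their values were seen. The summed level of the B cell markers is not reported here. Promoter windows came from RefSeq on GRCm38.p6, and gene positions and shared stretches from GENCODE M1 on mm9. Python 3.11.15, numpy 2.4.6, pandas 2.3.3, scipy 1.17.1 and matplotlib 3.10.9 were used.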

Additional observations from a re-analysis of the deposited data

Results flagged for a closer look

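H2-K1 was picked out because its difference with active Akt had opposite directions in both cell contexts. Every Akt-MAC library lay above every MAC library, and every Akt-RACVEC library lay below every RACVEC library. The difference between the Akt effects was -3.69 on the log2 scale (SE 0.87, 95% interval -5.52 to -1.86). It was not called in the fit over all genes by limma (adjusted p = 0.102), and its adjusted p ranged from 0.0123 to 0.571 over the alternatives. Macrophage and Kupffer cell markers summed to between 880 and 41205 FPKM in Akt-MACs, and their part in the difference was not tested.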

How the results depend on the processing

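The calls of Cd74, H2-Aa, H2-Ab1 and H2-Eb1 in Akt-liver ECs against LSECs were kept in all 15 alternatives with an adjusted p and by the study's criterion. The count called lower there was 7, between 5 and 7 with single libraries left out. The 1 member called higher in Akt-MACs against MACs became 0 when the fit held the compared groups alone and when Akt-MAC 2 and 3 were left out together, and lay between 0 and 1 with single libraries left out. The 4 members called lower in Akt-RACVECs against Akt-MACs became 1 with a pseudocount of 10 (H2-K1), with the compared groups alone (H2-Eb1) and with the study's criterion, where it was B2m and none of the 4, and 0 without Akt-MAC 2 and 3, and lay between 0 and 5 with single libraries left out. The count called lower was between 0 and 1 in RACVECs against MACs and between 0 and 2 for the difference of the Akt effects. Leaving out Akt-MAC 2 and 3, or Akt-LEC 1 and Akt-liver EC 1, was chosen after seeing the data. Replicate numbers are shared by the groups. The correlations of same-numbered libraries ran from -0.2 to 0.571 and in no comparison were all above 0.1. The labels do not tie the numbers to isolates, so these correlations cannot decide whether libraries of different groups share an isolate. With the replicate block the counts were 0 in Akt-MACs against MACs and 0 in Akt-RACVECs against Akt-MACs, and 6 in Akt-liver ECs against LSECs, where H2-K1 and B2m (adjusted p = 0.243) were lost and Tapbp (adjusted p = 0.0391) was gained. Of 1458 values of single genes, 8 changed sign where the value before or after exceeded its standard error, and 61 others changed sign within 1 standard error of 0. With single libraries left out, H2-Ab1 ran from -1.84 to 1.75 in RACVECs against MACs (highest without MAC 3) and from -1.35 to 1.77 in Akt-RACVECs against RACVECs (highest without RACVEC 1), and Tapbp from -0.77 to 0.75 there (lowest without Akt-RACVEC 3). Ptprc ran from -1.99 to 0.14 in Akt-RACVECs against Akt-LECs, highest without Akt-LEC 1, and was 0.14 also without both Akt-LEC 1 and Akt-liver EC 1. In Akt-LECs against Akt-liver ECs, Cd74 ran from -1.55 to 1.06 and H2-Aa from -1.12 to 0.64, both highest without Akt-liver EC 1, and Ptprc from -1.20 to 1.42, lowest without Akt-LEC 1. The causes were not tested. Depth is unknown, so the counting error of values at or near 0 is not known.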
